A study of Mus musculus with 12 samples.

Results

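The tricarboxylic acid (TCA) cycle and the steps that feed pyruvate into it were represented by 29 genes, taken by name from a table of 24062 genes in mouse oocytes. All 29 were in the table, and 24 passed the filter on low counts and were tested among 9935 genes. RNA was measured in 12 pools of 4 oocytes each, collected at day 0.5 after mating with vasectomized males. In 6 pools the females had eaten a high-fat, high-calorie diet (HFD) for 9 weeks before mating, and in the other 6 a control diet (CD) for the same time, while all animals ate the CD during mating. The labels call the HFD a modified form of the product code that they also give for the CD, so the content of the control feed is uncertain. For strain and age of the females, the labels used here hold no entry. The labels do not tie a pool to a female, so p-values measure the spread between pools, part of which may be technical.

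Pyruvate is the main fuel of the mouse oocyte and early embryo, which draw little energy from glucose. The carrier in the inner mitochondrial membrane brings pyruvate to the pyruvate dehydrogenase complex (PDC), which makes acetyl-CoA and is switched off by kinases and on by phosphatases. Citrate synthase joins acetyl-CoA to oxaloacetate, and the cycle then passes through isocitrate, 2-oxoglutarate, succinyl-CoA, succinate, fumarate and malate, yielding reducing power for the respiratory chain. Malic enzymes, pyruvate carboxylase and the cytosolic forms of malate and isocitrate dehydrogenase connect the cycle to the cytosol.

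Gene counts summed to 8409491 to 13793598 per HFD pool and 8556396 to 10477316 per CD pool. HFD pool 3 stood apart, with 14755 genes detected against 12229 to 13052 in the other 11 pools. HFD pools 1 and 2 and CD pools 2 and 4 also stood apart, with 3.84 to 9.40 CPM of Mos, the kinase that holds the egg at metaphase, against 146 to 1702 CPM in the other 8. The same 4 pools held 543 to 616 CPM of Gdf9, against 4601 to 9642 CPM in the other 8. Every count was even in HFD pools 1, 2, 4 and 6, which leaves HFD pools 3 and 5 and all CD pools for a comparison among libraries with odd counts. That comparison keeps CD pools 2 and 4, low in Mos, but no HFD pool low in Mos, so it is not balanced for Mos. Gdf9, a growth factor of the oocyte, averaged 4282 ± 3408 CPM in HFD pools and 4692 ± 3368 in CD pools, and its partner Bmp15 621 ± 325 CPM in HFD pools and 812 ± 528 in CD pools (SD, n = 6 each). Zp3, a zona pellucida gene, averaged 751 ± 1566 CPM in HFD pools, with 3942 CPM in HFD pool 3, and 59.9 ± 45.7 in CD pools. All 10 oocyte markers passed the filter, with sums of 13087 to 47261 CPM in HFD pools and 11189 to 32703 CPM in CD pools. Of 16 cumulus and granulosa markers 3 passed, and Ptx3, Amh and Amhr2 had no count. Their sum was 106 to 1811 CPM in HFD pools and 130 to 1350 CPM in CD pools, and without Serpine2 it was 19.9 to 47.9 CPM in HFD pools and 36.2 to 81.1 CPM in CD pools. Of 6 oviduct markers 2 passed, with sums of 2.39 to 28.5 CPM in HFD pools and 4.63 to 10.6 in CD pools. Of 5 blood markers 1 passed, with sums of 2.49 to 9.39 CPM in HFD pools and 2.19 to 7.40 in CD pools, and Hbb-bs and Hba-a1 had no count. Of 4 sperm markers 1 passed, Prm2, with sums of 3.31 to 19.2 CPM in HFD pools, the highest being HFD pool 3, and 0.662 to 4.85 in CD pools, and Tnp1 had no count. The part of such cells in the results was not tested.

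No gene of the cycle or of pyruvate metabolism differed between the diets past the adjusted threshold of 0.05. The genes nearest to it were Cs and Pdp1, with lower values in HFD pools, and Mpc1, Mpc2 and Mdh2, with higher values in HFD pools. Of the 24 tested, 0 passed edgeR's adjustment over all genes, as 0.0% of all genes did, and 5 (20.8%) had an unadjusted p under 0.05, near the 22.3% of all genes tested. These were 3 genes higher in HFD pools, where the share of all genes was 13.4%, and 2 lower, where it was 8.89%. The log2 fold change of HFD over CD was above 0 for 13 genes and below 0 for 11, with a median of 0.11, beside 51.8% above 0 and a median of 0.04 over all genes. DESeq2 called 1 gene, Cs, lower in HFD pools, of 22 with an adjusted p, against 7.42% of all genes in either direction and 2.46% lower. The limma-voom test called 0 of the 24, where it called 0.352% of all genes tested. For 0 of the 24 genes were the diets free of overlap, against 2.45% of all genes tested (1.17% higher and 1.28% lower in HFD pools).

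**Figure D1:**
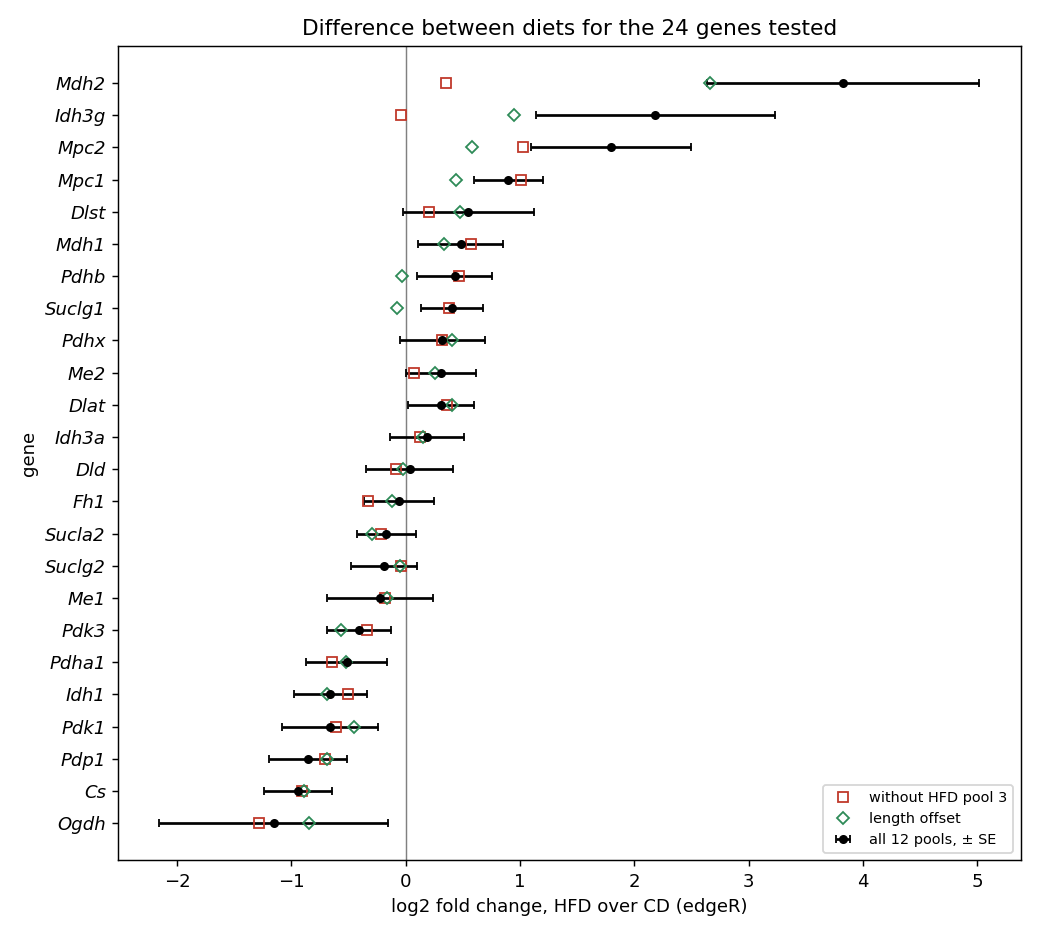
Log2 fold change of HFD over CD (x axis) for each of the 24 genes tested (y axis), from edgeR. Black points with bars are the value in all 12 pools ± SE, open squares the value without HFD pool 3, and open diamonds the value with each library's trend with exon length removed. Mdh2 and Idh3g lie at 3.83 and 2.18 in all pools and at 0.35 and −0.04 without HFD pool 3.

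Promoters are shown for Cs and Mpc1, neither of which passed the adjusted threshold. Cs had the smallest unadjusted p among the genes lower in HFD pools, and Mpc1 among those higher, apart from Mdh2. The sequences are from RefSeq (GRCm38.p6, plus strand) and run from 250 bases before to 50 after an annotated start, with the CCAAT box in capitals (CCAAT, or ATTGG on the other strand). Cs lies at chr10:128337477-128337776, and the first of the Mpc1 starts at chr17:8283537-8283836.
Cs: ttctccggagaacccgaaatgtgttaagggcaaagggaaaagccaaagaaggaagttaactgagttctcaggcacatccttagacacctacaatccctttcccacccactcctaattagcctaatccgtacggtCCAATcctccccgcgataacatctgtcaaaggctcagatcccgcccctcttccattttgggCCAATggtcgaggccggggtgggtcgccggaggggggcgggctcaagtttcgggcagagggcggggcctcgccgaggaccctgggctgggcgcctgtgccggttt
Mpc1: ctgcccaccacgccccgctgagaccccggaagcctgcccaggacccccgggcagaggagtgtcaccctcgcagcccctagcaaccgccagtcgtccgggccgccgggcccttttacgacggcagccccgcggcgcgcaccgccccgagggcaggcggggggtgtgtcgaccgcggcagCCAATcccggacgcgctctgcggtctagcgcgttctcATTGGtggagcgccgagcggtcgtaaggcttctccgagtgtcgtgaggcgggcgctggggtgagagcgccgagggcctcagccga
Promoters were listed for 26 of the 29 genes. The CCAAT box was in at least 1 promoter of 18 of them (69.2%), against 41.1% of all genes with a promoter in that table. Those genes were not limited to the genes tested here, and a gene with several starts had more windows to hold the box. The second window of Mpc1, at chr17:8284204-8284503, held none. Neither the palindromic NRF1 motif (1.07% of genes) nor the motif TCAAGGTCA of oestrogen-related receptors (0.466%) was found on either strand in any of the 26, which says only that these letters are not in these windows. The libraries measured RNA and not the use of these promoters.

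The mitochondrial pyruvate carrier is made of MPC1 and MPC2, and both genes had higher values in HFD pools. Mpc1 (chromosome 17, 8282904 to 8297661, mm10) stood at 72.0 CPM in the lowest, 129 in the median and 199 in the highest HFD pool, against 36.8, 73.5 and 95.5 CPM in the CD pools. All but HFD pool 3 lay above every CD pool. The means were 133 ± 43.4 CPM in HFD pools and 71.6 ± 22.5 CPM in CD pools (SD, n = 6 each), which gave a log2 fold change of 0.90 ± 0.30 (SE; edgeR, adjusted p = 0.116). Leaving out any 1 pool gave log2 fold changes of Mpc1 between 0.74 and 1.01. Among the libraries with odd counts the value for Mpc1 was 0.31, and with the trend with length removed it was 0.44. 4930506C21Rik, annotated as a processed transcript on the other strand, overlaps exons of Mpc1, and without strand their reads cannot be told apart.

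Mpc2 (chromosome 1, 165460637 to 165481214) was lower and more uneven. It ranged from 3.08 over a median of 21.6 to 76.7 CPM in HFD pools and from 2.02 over a median of 7.59 to 11.5 CPM in CD pools. HFD pools 3, 4, 5 and 6 lay above all CD pools, while HFD pools 1 and 2 held 3.08 and 4.97 CPM, within the CD range. The log2 fold change of Mpc2 was 1.80 ± 0.70 (SE; edgeR, adjusted p = 0.159), or 1.02 without HFD pool 3, and 0.58 with the trend with length removed. Among libraries with odd counts it was 2.70 (edgeR, adjusted p = 0.0456, where the range over all 23 alternatives was 0.0456 to 0.770), in a comparison that held HFD pool 3 as 1 of 2 HFD pools.

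**Figure D2:**
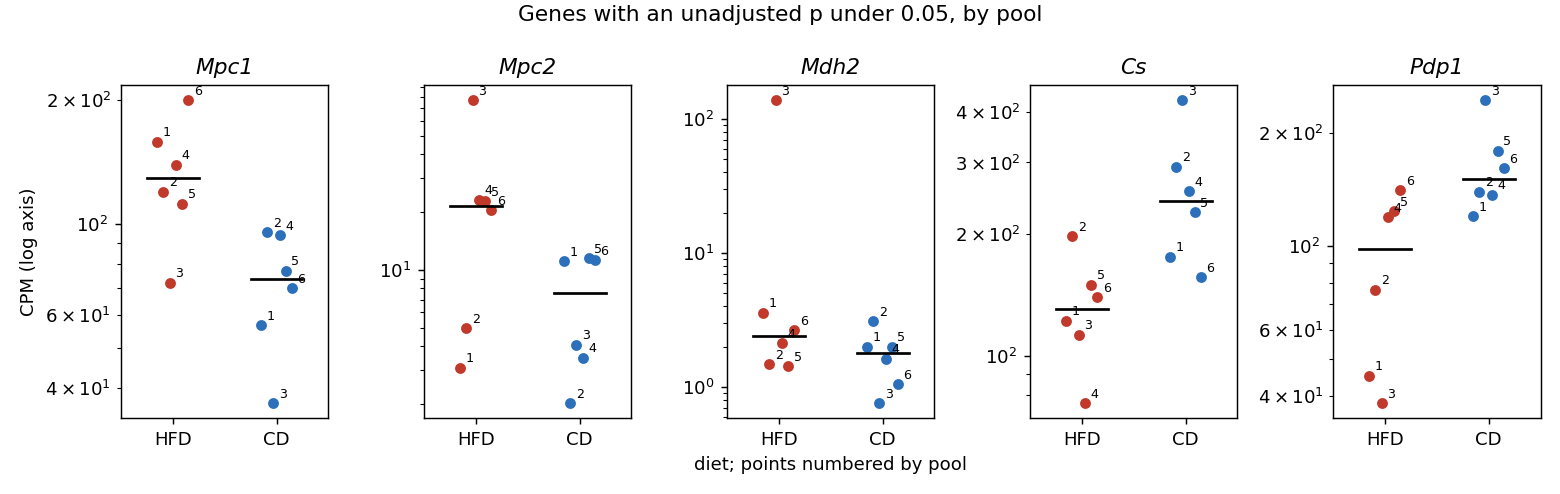
CPM on a log axis in each pool, HFD left of CD, for the 5 genes with an unadjusted p under 0.05. Points carry the pool number and bars mark the median. HFD pool 3 holds 138 CPM of Mdh2 while the other 11 pools hold 0.76 to 3.57 CPM.

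The PDC has a decarboxylase, E1, made of the products of Pdha1 and Pdhb, an acetyltransferase core, E2, encoded by Dlat, a dehydrogenase, E3, encoded by Dld, and a binding protein for E3, encoded by Pdhx. Per kb of exon length the order of the 5 means was the same in both diets. Pdhx averaged 130 ± 60.6 CPM per kb in HFD pools and 104 ± 51.7 in CD pools (SD, n = 6 each). Pdhb averaged 74.9 ± 21.3 CPM per kb in HFD pools and 55.6 ± 24.2 in CD pools, and Dld averaged 42.1 ± 19.8 in HFD pools and 41.0 ± 20.4 in CD pools. Dlat averaged 22.9 ± 5.10 CPM per kb in HFD pools and 18.5 ± 7.07 in CD pools, and Pdha1 had the lowest level of the complex, at 7.09 ± 2.91 in HFD pools and 10.1 ± 3.497 in CD pools. Neighbours in this order overlapped in their mean ± SD ranges in both diets, except Dlat and Pdha1, whose ranges were apart in HFD pools and overlapped in CD pools. None of the 5 passed the threshold between diets (edgeR, adjusted p = 0.407 to 0.964), with log2 fold changes between −0.52 for Pdha1 and 0.43 for Pdhb. Pdha1 shares its coding sequence closely with the intronless Pdha2, and its exons overlap Map3k15 on the other strand, so its count is uncertain.

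**Figure D3:**
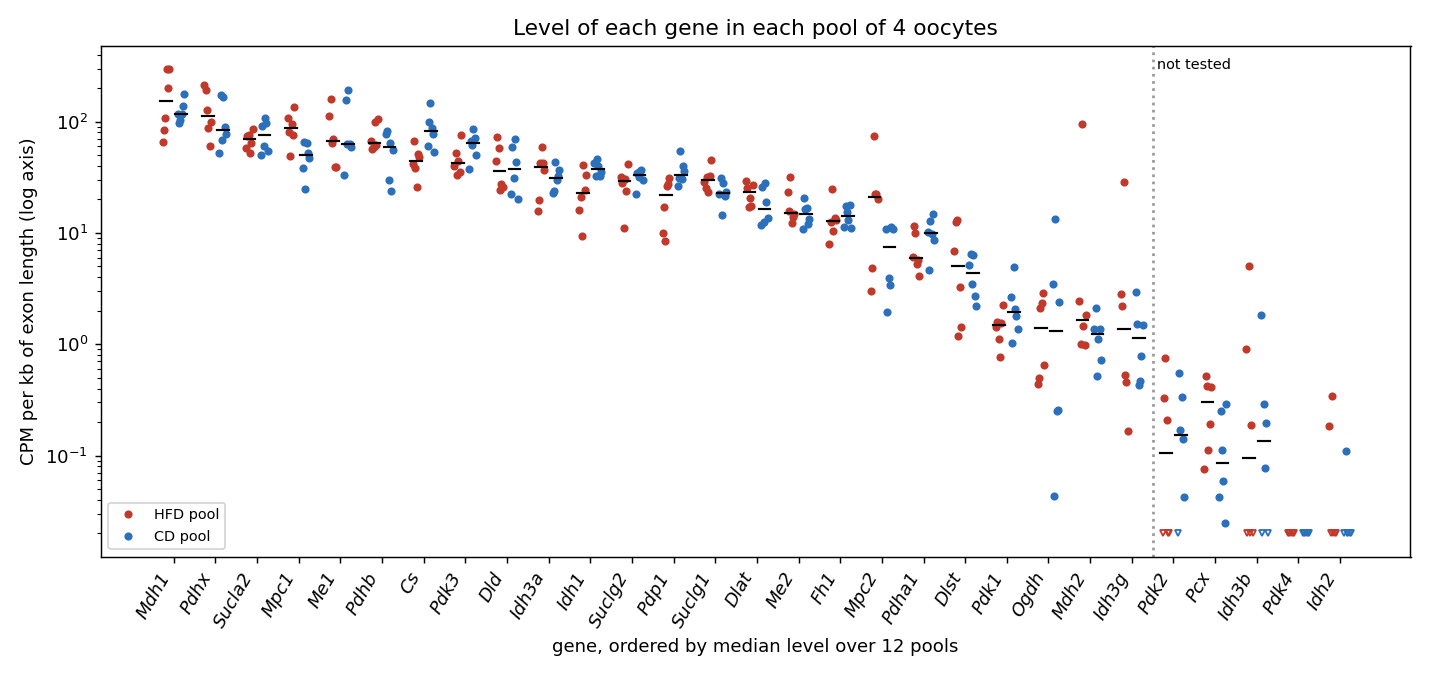
CPM per kb of exon length on a log axis for each of the 29 genes (x axis, ordered by the median over 12 pools), with a point for each HFD pool (left) and each CD pool (right) and a bar at the median. Open triangles at the bottom are pools with no count, and genes right of the dotted line were not tested. Median levels over 12 pools run from 118 CPM per kb for Mdh1 to 0 for Pdk4 and Idh2.

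Among the regulators of the PDC, the kinase gene Pdk3 had the highest mean level per kb of exon length in both diets and the phosphatase gene Pdp1 had lower values in HFD pools. Pdp1 (chromosome 4, 11958184 to 11966452), whose product removes the phosphates that inactivate E1, stood at 38.3 CPM in the lowest, 98.0 in the median and 141 in the highest HFD pool, against 120, 150 and 244 CPM in CD pools. All 6 HFD pools lay below the CD mean and 4 below every CD pool. Means were 90.7 ± 43.4 CPM in HFD pools and 164 ± 44.6 CPM in CD pools (SD, n = 6 each), which gave a log2 fold change of −0.85 ± 0.34 (SE; edgeR, adjusted p = 0.166). With each pool left out in turn the values for Pdp1 ran from −1.03 to −0.71. Among libraries with odd counts the value for Pdp1 was −1.05, and without the length trend it was −0.69.

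Pdk3 averaged 47.0 ± 16.0 CPM per kb in HFD pools and 62.4 ± 16.9 CPM per kb in CD pools. The hypoxia-responsive Pdk1 averaged 1.45 ± 0.499 CPM per kb in HFD pools and 2.30 ± 1.39 in CD pools, and every pool held less Pdk1 than Pdk3 on this scale. Their log2 fold changes were −0.41 ± 0.28 for Pdk3 and −0.66 ± 0.42 for Pdk1 (SE; edgeR, adjusted p = 0.403 and 0.365). The value for Pdk3 was −0.92 among libraries with odd counts, and without CD pool 3 the value for Pdk1 was −0.32. Pdk2 and Pdk4 were not tested. Pdk2 had at most 17 counts in an HFD pool and 13 in a CD pool, with no count in 3 HFD pools and 1 CD pool. Pdk4, the kinase induced by fasting and fatty acids in muscle and liver, had 0 counts in all 12 pools. At 3 counts this allows up to 0.217 to 0.357 CPM per pool, for counting error only. That limit used total gene counts without TMM factors, as given. Every count was even in HFD pools 1, 2, 4 and 6, and if those counts were doubled the limit there would be higher, which was not tested.

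Cs encodes citrate synthase, which opens the cycle, and had the smallest p among the genes lower in HFD pools. Cs (chromosome 10, 128337734 to 128362479) stood at 76.4 CPM in the lowest, 131 in the median and 197 in the highest HFD pool, against 156, 241 and 428 CPM in CD pools. HFD pool 2 was the only HFD pool above any CD pool, and all 6 HFD pools lay below the CD mean. The means were 133 ± 40.5 CPM in HFD pools and 256 ± 98.1 CPM in CD pools (SD, n = 6 each), which gave a log2 fold change of −0.94 ± 0.30 (SE; edgeR, adjusted p = 0.105). DESeq2 gave gene Cs a log2 fold change of −0.96 with an adjusted p of 0.0466, and over 23 alternatives the adjusted p of Cs ran from 0.0466 to 0.510 and its log2 fold change from −1.09 to −0.76. The lowest size came without CD pool 3, which held 428 CPM of Cs. Among libraries with odd counts the value for Cs was −1.02, with the length trend removed −0.89, and without the 4 pools low in Mos −1.04. The intronless copy Csl had at most 10 counts in a pool.

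Isocitrate dehydrogenase 3, the NAD-dependent enzyme of the cycle, needs the products of Idh3a, Idh3b and Idh3g. Idh3a was present in every pool, at 41.0 CPM in the lowest, 102 in the median and 152 in the highest HFD pool and 59.0, 80.4 and 112 CPM in CD pools, and its log2 fold change was 0.19 ± 0.32 (SE; edgeR, adjusted p = 0.766). Idh3g had 0.22 to 38.3 CPM with a median of 1.83 in HFD pools and 0.57 to 3.89 CPM with a median of 1.52 in CD pools. Its log2 fold change of 2.18 ± 1.05 (SE; edgeR, adjusted p = 0.235) rested on HFD pool 3: without it the value for Idh3g was −0.04. Idh3b was not tested, with at most 8.07 CPM in HFD (pool 3) and 2.98 CPM in CD (pool 1) and no count in 3 HFD and 2 CD pools. Its exons overlap Nop56 on the other strand, and without strand their reads cannot be told apart.

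NADP-dependent isocitrate dehydrogenase was represented almost wholly by the cytosolic form, Idh1. Mitochondrial Idh2 had no count in 4 HFD and 5 CD pools and at most 6 counts in any pool, so the ratio of both forms was not computed. Idh1 (chromosome 1, 65158616 to 65186500) stood at 23.4 CPM in the lowest, 56.1 in the median and 101 in the highest HFD pool, against 80.0, 93.3 and 115 CPM in CD pools. HFD pools 1, 2, 3 and 5 lay below every CD pool, and HFD pools 4 and 6 lay inside the CD range. The log2 fold change was −0.66 ± 0.32 (SE; edgeR, adjusted p = 0.237), or −0.50 without HFD pool 3 and −0.88 without HFD pool 4. The value for Idh1 among libraries with odd counts was −1.22. The SD of log2 CPM of Idh1 was 0.75 between HFD pools and 0.21 between CD pools, a difference that was not tested.

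The 2-oxoglutarate dehydrogenase complex shares Dld with the PDC and adds Ogdh (E1) and Dlst (E2). Ogdh was among the most uneven genes, at 1.95 to 12.8 CPM in HFD pools and 0.192 to 59.5 CPM in CD pools. Its log2 fold change of −1.15 ± 0.999 (SE; edgeR, adjusted p = 0.527) turned to 0.17 without CD pool 3, which held the 59.5 CPM of Ogdh. Dlst ranged from 3.31 to 36.4 CPM in HFD pools and from 6.09 to 17.97 CPM in CD pools, with a log2 fold change of 0.55 ± 0.58 (SE; edgeR, adjusted p = 0.609), or 0.20 without HFD pool 3.

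Succinyl-CoA synthetase pairs the common subunit encoded by Suclg1 with an ADP-forming subunit, encoded by Sucla2, or a GDP-forming one, encoded by Suclg2. Sucla2 had an SD of log2 CPM of 0.27 between HFD pools and 0.48 between CD pools, and stood at 115 CPM in the lowest, 155 in the median and 192 in the highest HFD pool and 113, 169 and 242 CPM in CD pools. Suclg2 stood at 42.0, 110 and 158 CPM in HFD pools and 84.0, 125 and 137 CPM in CD pools, and HFD pool 3 was the lowest of all. The log2 ratio of Suclg2 to Sucla2 CPM was −0.62 ± 0.73 in HFD and −0.47 ± 0.30 in CD (SD, n = 6 each; two-sided exact permutation test, p = 0.751; 0.751 adjusted over 4 ratios). Without HFD pool 3 the difference in that ratio changed sign to 0.12. Suclg1 averaged 47.4 ± 11.9 CPM in HFD pools and 35.8 ± 8.77 CPM in CD pools, which gave a log2 fold change of 0.41 ± 0.27 (SE; edgeR, adjusted p = 0.401). Its value was −0.08 with the length trend removed. Fh1, fumarate hydratase, stood at 36.3 ± 15.5 CPM in HFD pools and 37.8 ± 7.86 CPM in CD pools, with a log2 fold change of −0.06 ± 0.31 (SE; edgeR, adjusted p = 0.929).

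Malate dehydrogenase was represented by cytosolic Mdh1, while mitochondrial Mdh2 was low in 11 of the 12 pools. Mdh1 (chromosome 11, 21556787 to 21572367) had the highest level of all 29 genes per kb, a median of 118 CPM per kb over 12 pools, above 94.2% of the genes tested. It stood at 141 CPM in the lowest, 327 in the median and 629 in the highest HFD pool, against 206, 250 and 375 CPM in CD pools. HFD pools 4, 5 and 6 lay above every CD pool and HFD pools 1 and 2 below every one, so the HFD pools lay on both sides of the CD pools. The log2 fold change of Mdh1 was 0.48 ± 0.37 (SE; edgeR, adjusted p = 0.464), or 0.26 without HFD pool 4. Exons of Mdh1 overlap Wdpcp on the other strand.

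Mdh2 (chromosome 5, 135778480 to 135790398) held 138 CPM in HFD pool 3, or 1388 counts. That pool also held the most Prm2 and Zp3 and the most genes detected, whose part in the Mdh2 value was not tested. The other 5 HFD pools held 1.43 to 3.57 CPM of Mdh2 and the CD pools 0.756 to 3.08 CPM. The log2 fold change of 3.83 ± 1.19 (SE; edgeR, adjusted p = 0.105) was 0.35 for gene Mdh2 without HFD pool 3. Among libraries with odd counts, where that pool is 1 of 2 HFD pools, it was 5.205 for Mdh2 (edgeR, adjusted p = 0.01475, with 0.01475 to 0.825 over 23 alternatives). The log2 ratio of Mdh2 to Mdh1 CPM was −6.10 ± 2.84 in HFD and −7.18 ± 0.79 in CD (SD, n = 6 each; exact permutation test, p = 0.494, adjusted 0.751), and the difference of 1.08 was 0.01 without HFD pool 3.

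Of the genes that link malate and pyruvate, cytosolic Me1 was abundant, mitochondrial Me2 lower, and pyruvate carboxylase, Pcx, too low to test. Me1, an NADP-dependent malic enzyme, stood at 141 CPM in the lowest, 242 in the median and 579 in the highest HFD pool and at 119, 226 and 696 CPM in CD pools. Me2 stood at 32.6, 40.1 and 84.5 CPM in HFD pools and 28.7, 39.2 and 54.6 CPM in CD pools. The log2 ratio of Me2 to Me1 CPM was −2.45 ± 0.87 in HFD and −2.86 ± 0.70 in CD (SD, n = 6 each; exact permutation test, p = 0.383, adjusted 0.751). The log2 fold changes were −0.23 ± 0.46 for Me1 and 0.31 ± 0.30 for Me2 (SE; edgeR, adjusted p = 0.808 and 0.582). Without HFD pool 3 the value for Me2 was 0.0756. Among libraries with odd counts the value for Me1 was −0.94, in a comparison that left out HFD pools 1 and 2 and kept CD pools 2 and 4. Those are the pools low in Mos. A330041J22Rik, an antisense gene, overlaps exons of Me1, and without strand their reads cannot be told apart. Pcx had 0.324 to 2.21 CPM in HFD pools and 0.105 to 1.24 CPM in CD pools. For the carrier, the log2 ratio of Mpc2 to Mpc1 CPM was −3.03 ± 1.97 in HFD and −3.48 ± 1.26 in CD (SD, n = 6 each; exact permutation test, p = 0.649, adjusted 0.751), and its difference of 0.45 turned to −0.17 without HFD pool 3. The log2 ratio of Mpc2 to Mpc1 was −5.59 to −4.54 in the 4 pools low in Mos and −3.27 to 0.0926 in the other 8. The smallest p the permutation test can give with 6 pools per diet is 0.00216. Among libraries with odd counts, HFD pools 3 and 5 against 6 CD pools, the differences in log2 ratio were 2.80 for Mdh2 to Mdh1, −0.87 for Suclg2 to Sucla2, 1.16 for Me2 to Me1 and 2.38 for Mpc2 to Mpc1. The exact permutation p was 0.214 for the first and 0.0714 for the others, and 0.214 and 0.0952 adjusted over the 4 ratios. With so few pools the p of this permutation test moves in coarse steps.

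A pattern across pools of both diets was seen for Pdhx and Me1. The 4 pools low in Mos, HFD pools 1 and 2 and CD pools 2 and 4, held the 4 highest values of Pdhx and Me1, which is 2 of 24 genes (8.33%), against 3.63% of all genes tested. Pdhx was at 650 to 840 CPM in those 4 pools and at 203 to 499.9 CPM in the other 8, and Me1 at 404 to 696 CPM and at 119 to 251 CPM. For 0 of the 24 genes did those 4 pools hold the 4 lowest values, against 6.97% of all genes tested. Single pools among them were the lowest of all for some genes, HFD pool 1 for 3 genes and CD pool 2 for 2. Mpc2 was at 2.02 to 4.97 CPM in the 4 pools and at 4.06 to 76.7 CPM in the other 8. Ogdh was at 0.192 to 2.21 CPM in the 4 pools and at 1.15 to 59.5 CPM in the other 8. Without the 4 pools low in Mos the log2 fold changes of Pdp1, Mpc1 and Mdh2 were −0.74, 1.12 and 4.69 (edgeR, adjusted p = 0.268, 0.133 and 0.143).

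**Figure D4:**
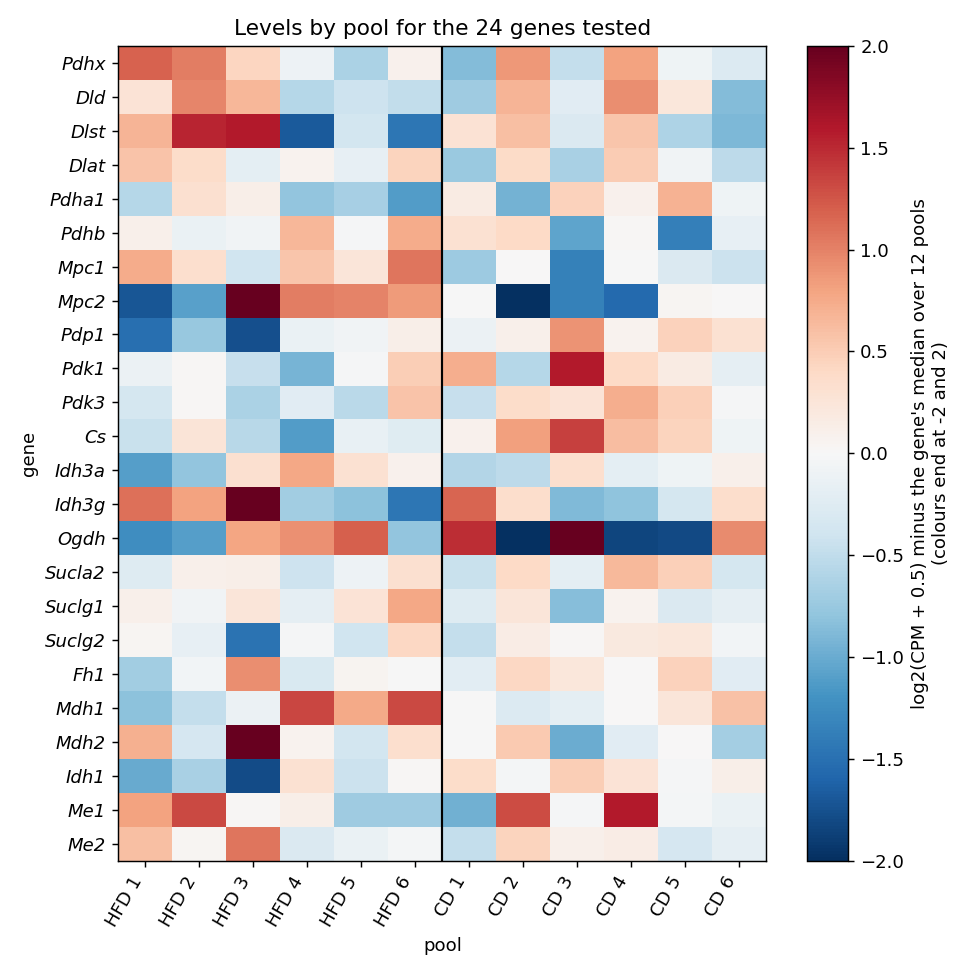
Each cell is the log2(CPM + 0.5) of a gene (rows) in a pool (columns, HFD left of the black line, CD right) minus the gene's median over the 12 pools. Red is above and blue below that median, and the colours end at −2 and 2. Pdhx and Me1 are highest in HFD pools 1 and 2 and CD pools 2 and 4, and Mpc2, Idh3g and Mdh2 in HFD pool 3.

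HFD pool 3 was the highest of the 12 for 6 of the 24 genes (25%, against 22.6% of all genes tested), and CD pool 3 for 5 (20.8%, against 20.2%). The 6 were Mpc2, Idh3g, Dlst, Fh1, Mdh2 and Me2. HFD pool 3 held 38.8 times the next highest value of Mdh2, 9.85 times that of Idh3g and 3.31 times that of Mpc2, and 1.05 to 1.39 times for the other 3. It was the lowest pool for 4 genes, Pdk3, Pdp1, Idh1 and Suclg2 (16.7%, against 16.7% of all genes tested). The median SD of log2 CPM over the 24 genes was 0.66 between HFD pools and 0.53 between CD pools, beside 0.75 and 0.70 over all genes tested. A difference carried by every oocyte and one carried by some oocytes of a pool, or by less RNA per oocyte, cannot be told apart in these pools.

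Exon length moved with the difference between diets. Over the 24 genes Spearman's rho of log2 fold change on exon length was −0.70, and over 9472 genes it was −0.40. Both are descriptions across genes that share the same libraries, which are not independent replicates. The slope of log2 CPM, taken relative to each gene's mean, on log2 exon length was uneven between pools. It ran from −0.44 in HFD pool 3 to 0.0007 in HFD pool 5, and from −0.069 in CD pool 4 to 0.50 in CD pool 3. Neither rho was computed without HFD pool 3, where the log2 fold changes of Mpc2, Idh3g and Mdh2 were 1.02, −0.04 and 0.35. Mpc2, Idh3g, Mdh2 and Mpc1, with 1025, 1331, 1456 and 1470 nt, are the shortest of the 24, and Cs and Pdp1 have 2926 and 4507 nt. With the length trend removed, 2 of the 24 genes (8.33%), Cs and Mdh2, had an unadjusted p under 0.05 (edgeR), against 15.6% of all genes tested. The log2 fold changes were then 0.44 for Mpc1, 0.58 for Mpc2 and 2.66 for Mdh2, against −0.89 for Cs and −0.69 for Pdp1. That fit kept HFD pool 3, which held 138 CPM of Mdh2. The part of length in these results was not tested.

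**Figure D5:**
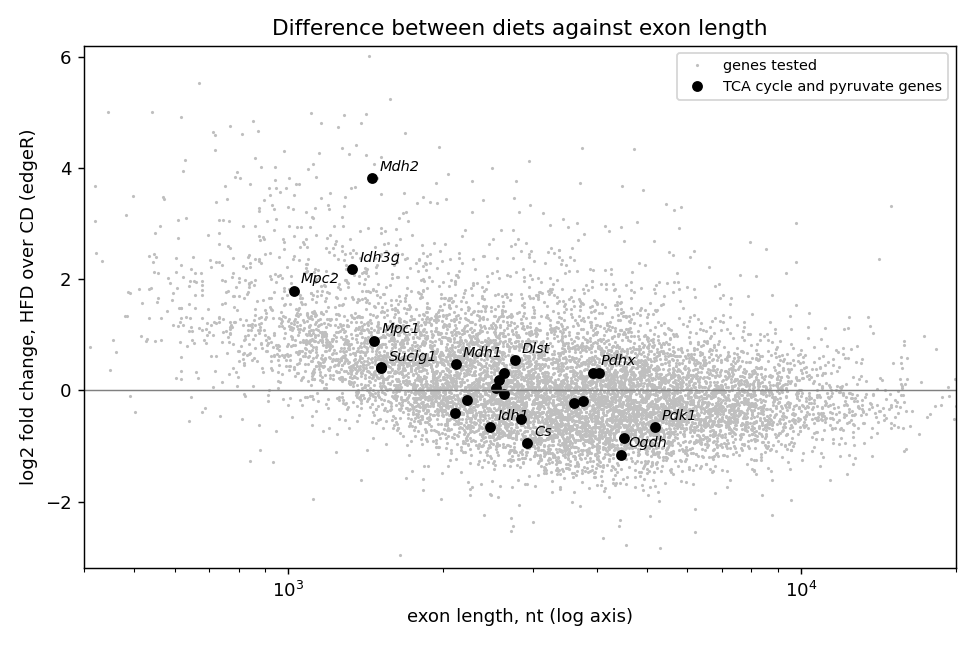
Log2 fold change of HFD over CD (y axis) against exon length in nt on a log axis (x axis) for the 9472 tested genes with a known exon length (grey) and the 24 genes of the cycle and pyruvate metabolism (black). The 34 genes beyond the x axis are not drawn. The shortest of the 24, Mpc2 at 1025 nt and Idh3g at 1331 nt, lie at 1.80 and 2.18, and Pdp1 at 4507 nt lies at −0.85.

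Other genes of the pathway were read from a list of 48, of which 46 were in the table and 33 were tested. The list held aconitases, succinate dehydrogenase, lipoate attachment, lactate dehydrogenase, mitochondrial carriers, transaminases and branched-chain keto acid dehydrogenase. None passed edgeR's adjustment, while 5 were higher and 5 lower in HFD pools at an unadjusted p under 0.05 (30.3%, against 22.3% of all genes), and DESeq2 called 2 of 29 higher, against 4.96% of all genes with an adjusted p. The median log2 fold change was 0.26, or 0.04 without HFD pool 3. Succinate dehydrogenase, the enzyme that the cycle shares with the respiratory chain, had values on both sides. Its flavoprotein gene Sdha stood at 147 ± 46.1 CPM in HFD pools and 231 ± 28.8 CPM in CD pools (SD, n = 6 each), which gave a log2 fold change of −0.66 ± 0.25. The iron-sulphur subunit gene Sdhb stood at 27.5 ± 28.6 CPM in HFD pools and 6.09 ± 4.89 CPM in CD pools, which gave a log2 fold change of 2.17 ± 0.71, or 1.55 without HFD pool 3. The membrane anchor gene Sdhd had 2.63 ± 0.95, or 0.54 without that pool. Sdhaf2, which helps attach flavin to Sdha's product, had 1.88 ± 0.62, or 0.85 without that pool. The edgeR adjusted p was 0.112 for Sdhb and Sdhaf2, 0.135 for Sdhd and 0.152 for Sdha, and DESeq2 called Sdhb and Sdhaf2 (adjusted p = 0.0281 and 0.0349).

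Transaminase and carrier genes were also on both sides. The log2 fold change was −1.02 ± 0.37 for Gpt2, the mitochondrial alanine transaminase, −0.70 ± 0.28 for Slc25a13, an aspartate and glutamate carrier, and −0.61 ± 0.26 for Glud1, glutamate dehydrogenase (SE; edgeR, adjusted p = 0.134, 0.171 and 0.185). All 6 HFD pools lay below the CD mean for each of these 3 genes. Got1, the cytosolic aspartate transaminase, had 1.54 ± 0.66 (edgeR, adjusted p = 0.195), or 1.11 without HFD pool 3.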

How the data were processed

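RNA of 12 pools of 4 oocytes was made into full-length cDNA (SMART-Seq v4) and tagmented libraries (Nextera XT), per the labels' protocols. This chemistry does not mark strand. The authors deposited raw read counts per gene symbol, not normalised. The submitters' processing notes name STAR, HTSeq 1.0.0, DESeq2 1.0.19 and mm10. Annotation and counting settings: not given in the sources used here. Left out were the 5 lines of unassigned reads (62.3% to 72.9% of tallied reads). Counts were compared with edgeR 4.0.16 under R 4.3.3 (TMM, default filter on low counts, robust quasi-likelihood F-test, diet as the only term, Benjamini-Hochberg adjustment over 9935 genes). DESeq2 1.42.0, limma 3.58.1, other scalings, halved even counts, a length offset, a replicate block and leaving out pools were alternatives. Leaving out the 4 pools low in Mos was chosen after seeing the data. The edgeR fit, with and without the length offset, was run on simulated counts. The simulation held no outlying pool, no pools low in Mos and no libraries of even counts only. It cannot show how the fit handles these. CPM used TMM factors, except in the limit for Pdk4, and log2 CPM a prior count of 2. Exon lengths and mm10 coordinates came from GENCODE M21, matched for 22708 symbols. Reads carried no molecular identifiers, so limits cover counting error only. All 29 genes are accounted for. Those with an unadjusted p under 0.05, a DESeq2 call, diets that do not overlap, a place in a ratio or the highest or lowest level got values by pool, and 4 genes of the wider pathway with the smallest p were named in each direction. Genes and lists were chosen with earlier results of these data known.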

Additional observations from a re-analysis of the deposited data

Results flagged for a closer look

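HFD pool 3 lay far from the other HFD pools for Mdh2, at 7.11 on the log2 CPM scale, and for the log2 ratio of Suclg2 to Sucla2, at −1.99, where the other 5 HFD pools ran from −0.69 to 0.00. These were 2 of 56 sets of 6 pools examined, and chance alone singles out about 1 in 20. Reads aligned to more than 1 place, which no comparison used, made up 30.3% ± 3.93 of tallied reads in HFD pools and 23.3% ± 2.84 in CD pools (SD, n = 6 each), with ranges of 26.8% to 35.7% in HFD and 18.6% to 26.5% in CD. Their part in the results was not tested.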

How the results depend on the processing

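Counts of calls were 0 for all genes, for the 24 genes and for the wider pathway under edgeR with both other scalings, no filter, halving, the length offset, the replicate block, the pools low in Mos left out, or any 1 pool left out (0 to 0). DESeq2 called 709 genes, 1 of the 24 and 2 of the wider pathway, limma-voom called 35 genes, and the libraries with odd counts gave 456 genes, 2 of the 24 (Mpc2, 2.70, and Mdh2, 5.205) and 2 of the wider pathway. The median log2 fold change of the 24 genes, 0.11, was −0.12 with limma-voom, 0.32 without the 4 pools low in Mos, and −0.04 to 0.21 with each pool left out. The median over all genes was 0.04, and −0.06 with total counts, 0.13 without a filter and 0.17 with DESeq2. The direction of 12 of the 24 genes held in all 23 alternatives. For the others it turned for Dld (−0.0193 without a filter, −0.0973 with limma-voom, −0.0192 with odd counts, −0.0225 with the length offset), Idh3g (−0.45 with limma-voom), Ogdh (0.79 with limma-voom) and Dlst (−0.15 with limma-voom). With odd counts, where CD pools 2 and 4 but no HFD pool were low in Mos, Pdhx was −0.23, Dlat −0.15 and Fh1 0.35. The length offset gave Pdhb −0.0332 and Suclg1 −0.0792, and with the replicate block added Pdhb −0.0241, Suclg1 −0.13, Idh3g −0.24 and Ogdh 0.34. Without the pools low in Mos, Sucla2 was 0.0951 and Fh1 0.18. Leaving out 1 pool each gave ranges of −0.19 to 0.25 for Dld, −0.33 to 0.057 for Fh1, −0.041 to 2.53 for Idh3g, −0.0107 to 0.34 for Idh3a, −1.46 to 0.17 for Ogdh and −0.55 to 0.10 for Me1. For the ratios the ranges were −0.28 to 0.12 for Suclg2 to Sucla2, −0.17 to 0.97 for Mpc2 to Mpc1, 0.01 to 1.48 for Mdh2 to Mdh1 and 0.19 to 0.68 for Me2 to Me1. Libraries with odd counts gave values outside these ranges for all 4 ratios (−0.87, 2.38, 2.80 and 1.16). The cause of these changes was not tested. Both diets carry the numbers 1 to 6, and deviations of same-numbered pools correlated from −0.45 to 0.55. These correlations do not show whether the numbers pair the pools. With the replicate block edgeR called 0 genes (1255 at an unadjusted p under 0.05, against 2215 without it) and the value for Ogdh was 0.24. At this depth 5 of the 29 genes lay below the filter on low counts and were not tested.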
